A study of Mus musculus with 12 samples.

Results

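Loss of fibulin-5 was examined in the left common carotid artery (LCA) of mice 1 day after its partial ligation, an operation that narrows the outflow of the artery and gives it disturbed flow. The comparison set the 3 arrays titled FibVKO LCA against the 3 titled WildType LCA, 6 of the 12 one-colour Illumina expression arrays in the study, and all differences are given as knockout (KO) minus wild type (WT). The other 6 arrays measured the right common carotid artery (RCA) of WT and KO mice, which was left untouched, and entered here through the estimate of the spread, the choice of probes and a comparison of both sides. All samples carry the strain tag C57Bl/6J, and all 4 groups were taken 1 day after ligation, since the operation was done on the left side of mice of both genotypes. The labels write the genotype as FibVKO and the study's design text speaks both of a knockdown of Fibulin V and of FibV KO. They do not give the allele or the exons it removes, nor the age or sex of the mice. Whether each array came from a mouse of its own is not stated, so p-values here reflect only how much these samples varied, which may be technical. With 3 arrays in a group, the number of arrays limits the precision of every value. The comparison covered 15395 genes with a usable probe, all of them annotated genes of the array.

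Fibulin-5 is a secreted glycoprotein of the elastic fibre, the structure that lets an artery recoil after each heartbeat. It binds tropoelastin, the lysyl oxidase-like enzymes and latent TGF-beta binding proteins, and guides elastin onto microfibrils made of fibrillins and microfibril-associated proteins. It also binds integrins on smooth muscle and endothelial cells. Smooth muscle cells of the arterial wall carry a contractile apparatus of alpha-actin, tropomyosin, caldesmon and myosin light chains, whose genes are driven largely by serum response factor (SRF) with its cofactors, and they respond to stretch, flow and TGF-beta.

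Array signal, given throughout as the authors' deposited intensity on a linear scale, was low. The median intensity was about 93.6 on each array with a floor of 72.4, and the 95th percentile of 1501 olfactory and vomeronasal receptor probes, taken as a guide to background because these genes are mostly silent in arteries, lay between 95.7 and 126. WT LCA replicate 3 stood apart. Its receptor level was the 126, its values exceeded that level for 19.4% of the genes tested against 35.2% to 59.8% on the other 11 arrays, and its median correlation with the other arrays was 0.643 against 0.744 to 0.844. The counts over all genes and many of the gene and list results are therefore given with and without this array. Values with no such statement include it. Fbln5 itself was read by 1 probe at background, at 88.0, 87.4 and 86.5 in WT LCA and 84.0, 88.4 and 81.7 in KO LCA, so the array neither shows nor tests the loss of its transcript.

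Of the 15395 genes, 1 passed limma's test at an adjusted p under 0.05, which is 0.00650% of genes, and it was higher in KO LCA. It was Schip1, which encodes schwannomin-interacting protein 1, a partner of the tumour suppressor merlin, also known as schwannomin. Among the genes with the next smallest p on the higher side were Tpm1 and Acta2 of the contractile apparatus and the ligand gene Tgfb2. On the lower side they included Sardh and Clec9a, described below. Gja5, the gap junction protein connexin 40 of arterial endothelium, had a larger p but the largest difference of the 12 lower genes named below. None of these passed. At an unadjusted p under 0.05, 751 genes (4.88%) were higher and 308 (2.00%) were lower in KO LCA. Without WT LCA replicate 3 these counts were 568 (3.69%) and 538 (3.49%), so the balance towards higher values did not hold without it. Of the 751 genes, 548 had their lowest WT LCA value on that array. Without it 428 of the 751 higher and 158 of the 308 lower genes still had an unadjusted p under 0.05 in limma. All 751 kept their sign, which genes chosen at that level on the same arrays could hardly lose. The 3 KO and 3 WT values did not overlap for 1269 genes (8.24%) that were higher and 853 (5.54%) that were lower. A log2 difference of at least 1 was measured for 127 genes (0.825%) on the higher side and 45 (0.292%) on the lower. The median over all genes was -0.0084, and 0.0025 without WT LCA replicate 3. In each direction, the 12 genes with the smallest p whose groups did not overlap and whose higher group was above background on all 3 arrays are described by name. Brighter genes had a higher median: among the 3849 genes of the brightest of 4 equal classes by mean signal, the median difference was 0.10, or 0.05 without that array, and 11.9% were higher at an unadjusted p under 0.05.

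**Figure D1:**
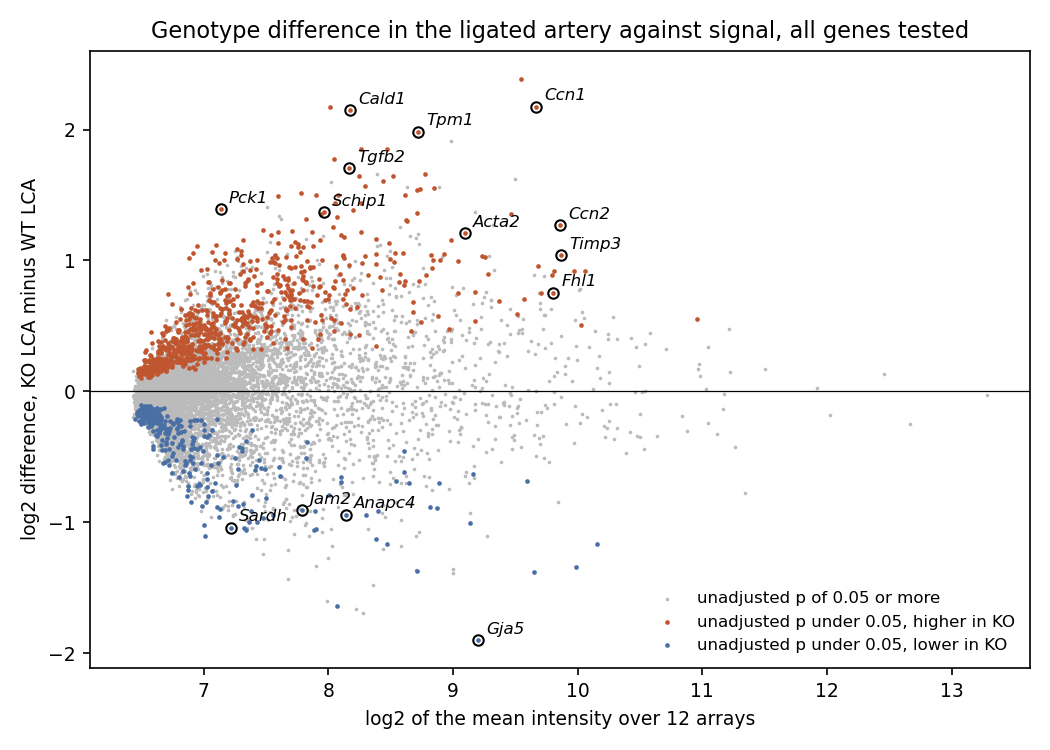
Log2 difference of KO LCA minus WT LCA (vertical axis) against log2 of the mean intensity over 12 arrays (horizontal axis), with 1 point for each of the 15395 genes tested. Coloured points had an unadjusted limma p under 0.05, 751 of them higher in KO and 308 lower, and the circled genes include Gja5 at -1.90 and Cald1 at 2.15.

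Schip1 read 148, 156 and 116 in the 3 WT LCA arrays and 341, 387 and 349.5 in the 3 KO LCA arrays. Every KO value was more than 2 times every WT value, and the 3 WT LCA arrays held the lowest values of all 4 groups. The log2 difference was 1.37 ± 0.12 (SE, n = 3 arrays in each group), with adjusted p = 0.00862 in limma, and 1.24 without WT LCA replicate 3, with adjusted p = 0.00268. In the untouched RCA the values were 203, 218 and 182 in WT and 294, 278 and 319 in KO, a difference of 0.56 ± 0.12 in the same direction. The gap between the differences on both sides was 0.81 ± 0.17, with adjusted p = 0.905 in limma. A second kept Schip1 probe, which lay near background in WT, differed by 0.16, so the call rests on 1 of 2 probes. It did not pass without KO LCA replicate 1 (1.41, adjusted p = 0.0605), in a fit of the 2 LCA groups alone (adjusted p = 0.235) or in a fit with a trended, robust prior (adjusted p = 0.241). With the kept probes of each gene averaged, 15 genes passed, 12 higher and 3 lower, among them Schip1 at 0.76 with adjusted p = 0.0488 in limma.

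**Figure D2:**
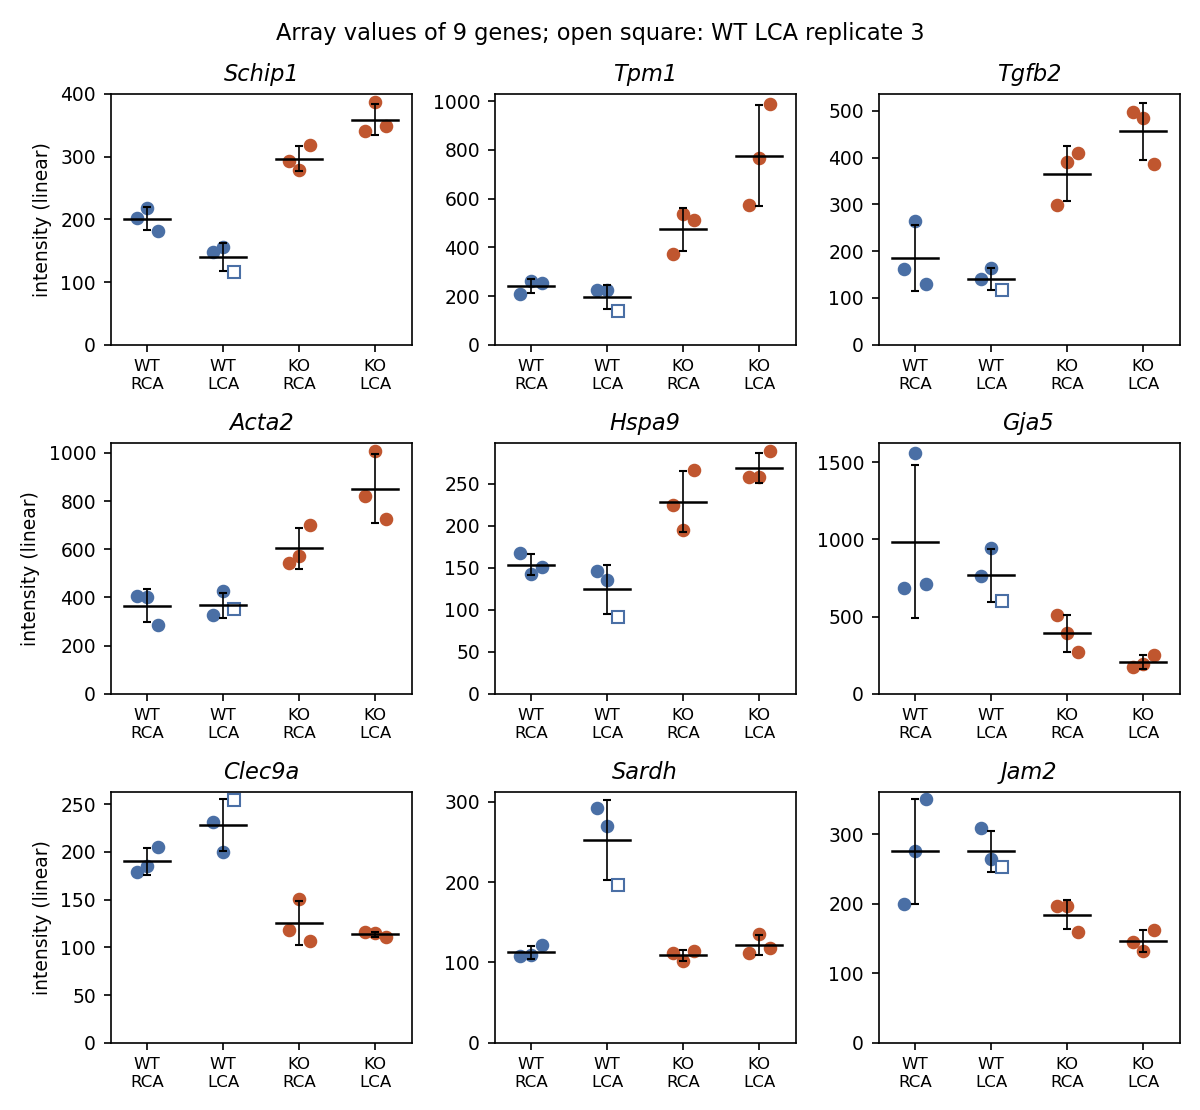
Linear intensity (vertical axis) of 9 genes in the 4 groups (horizontal axis), 1 point per array, with the mean ± 1 SD over 3 arrays; the open square is WT LCA replicate 3. In each of the 9 panels the 3 KO LCA points lie wholly above or wholly below the 3 WT LCA points, as for Schip1 (341, 387 and 349.5 against 148, 156 and 116).

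Promoters of contractile smooth muscle genes are known for the CArG box, the site SRF binds: the letters CC, then 6 letters that are each A or T, then GG. RefSeq promoters of mouse build GRCm38.p6, taken as the 250 bases before each start, were searched for it on both strands, which are equivalent for this site. An exact box stood in 1.47% of 32851 promoters and 1.62% of 27025 genes. Of 26 contractile genes with a listed promoter, out of 30 tested, 5 (19.2%) held one: Cnn2, Fhl1, Ldb3, Myl6 and Myl9. A box with exactly 1 of the 6 middle letters changed to C or G, a form known from the Acta2 promoter, stood in 8.33% of genes and in 5 of the 26 (19.2%). Of the 12 genes named as higher below, 11 had a listed promoter and 1, Schip1, held an exact box. The 12 lower genes had 10 with a listed promoter and held none. Of the 5 contractile genes with an exact box, Cnn2, Fhl1, Myl6 and Myl9 were higher at an unadjusted p under 0.05. Ldb3 was not, and its difference ran from -0.090 to 0.087 under the alternatives. Tpm1 and Cald1, with differences of 1.98 and 2.15, and Csrp1 held neither an exact nor a changed box. A match describes letters only. Whether SRF sat there was not measured. Capitals mark the exact boxes in Schip1, Myl6, Myl9 and Srf and the 2 changed boxes in Acta2. These 5 promoters were picked among those with a box, so they cannot tell whether boxes go with higher values. The 5 promoters are shown because Schip1 is the gene that passed, the others encode SRF or contractile proteins described next, and Schip1 (second of 3 listed starts, chr3:68467933-68468182, plus strand) and Myl6 (the lower by coordinate of 2 listed windows, chr10:128493010-128493259, minus strand) hold the same 10 letters, CCTTATATGG, ending 58 and 41 bases before the start. Which Schip1 start the probe reads was not determined. The Acta2 window is chr19:34255374-34255623, minus strand, that of Myl9 is chr2:156775214-156775463, plus strand, and that of Srf is chr17:46556163-46556412, minus strand.
Schip1: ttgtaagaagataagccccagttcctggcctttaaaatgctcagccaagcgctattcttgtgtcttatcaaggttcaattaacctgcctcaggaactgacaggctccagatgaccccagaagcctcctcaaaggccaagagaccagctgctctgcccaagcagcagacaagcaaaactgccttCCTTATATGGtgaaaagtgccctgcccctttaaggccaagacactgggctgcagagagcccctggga
Myl6: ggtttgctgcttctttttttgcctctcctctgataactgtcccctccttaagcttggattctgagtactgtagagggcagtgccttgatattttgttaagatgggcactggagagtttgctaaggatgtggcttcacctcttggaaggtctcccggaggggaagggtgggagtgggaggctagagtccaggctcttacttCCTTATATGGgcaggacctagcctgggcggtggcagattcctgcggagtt
Myl9: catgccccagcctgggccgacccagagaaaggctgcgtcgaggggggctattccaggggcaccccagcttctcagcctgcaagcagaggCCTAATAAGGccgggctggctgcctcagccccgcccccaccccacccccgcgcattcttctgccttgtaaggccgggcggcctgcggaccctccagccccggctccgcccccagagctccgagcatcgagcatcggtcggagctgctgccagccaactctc
Acta2: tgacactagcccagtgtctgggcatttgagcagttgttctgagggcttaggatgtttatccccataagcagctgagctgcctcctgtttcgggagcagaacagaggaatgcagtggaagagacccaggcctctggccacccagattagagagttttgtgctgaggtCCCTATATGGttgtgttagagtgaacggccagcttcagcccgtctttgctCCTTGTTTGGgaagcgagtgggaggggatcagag
Srf: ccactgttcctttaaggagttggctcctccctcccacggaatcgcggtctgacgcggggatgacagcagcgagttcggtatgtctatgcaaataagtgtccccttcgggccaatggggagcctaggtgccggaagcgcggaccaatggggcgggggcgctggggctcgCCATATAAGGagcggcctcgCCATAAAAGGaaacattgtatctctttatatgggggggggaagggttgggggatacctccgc

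Contractile smooth muscle genes had higher values in KO LCA. Of 30 members tested, 15 (50%) were higher at an unadjusted p under 0.05 and 0 lower. Of all genes, 4.88% were higher and 2.00% lower, and of the brightest class 11.9% and 2.36%. These shares are also the reference for the list counts below. Without WT LCA replicate 3 the contractile counts were 11 and 0. The median difference over the list was 0.24, or 0.22 without that array, where the median over all genes was near 0. None of the 30 passed over all genes, although Tpm1 passed without WT LCA replicate 3. The list's median was 0.06 in the untouched RCA.

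Tpm1, a tropomyosin that lies along actin filaments, read 223, 227 and 138 in WT LCA and 573, 768 and 989 in KO LCA. The lowest KO value was above 2 times the highest WT value. Its difference was 1.98 ± 0.25, adjusted p = 0.0707 in limma, and 1.75 without WT LCA replicate 3, adjusted p = 0.0473. The 2 other kept probes gave 1.29 and 1.63. Acta2, the smooth muscle alpha-actin, read 326, 425 and 350.3 in WT LCA and 819.7, 1007 and 726 in KO LCA. All KO values were above all WT values, and WT LCA replicate 3 lay between the other WT arrays. Its difference was 1.21 ± 0.18, adjusted p = 0.0715, and 1.18 without WT LCA replicate 3, and its 5 other kept probes spanned 0.01 to 2.13. Cald1, which encodes caldesmon, an actin-binding brake on contraction, read 148, 140.5 and 90.8 against 443, 436 and 849. All 3 KO values were above all 3 WT values, with KO LCA replicate 3 the highest. The difference was 2.15 ± 0.42, adjusted p = 0.139, and 1.93 without the doubted array, while the 4 other kept probes gave smaller values, 0.36 to 1.01.

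Other contractile genes lay at lower signal or differed less. Fhl1, a LIM protein of muscle, read 795, 667 and 558 in WT LCA and 1152, 1143 and 1079.6 in KO LCA, a difference of 0.75 ± 0.18, and the KO arrays lay close together above all WT arrays. Pdlim7, a PDZ and LIM domain protein of the cytoskeleton, differed by 0.56 ± 0.13, and Tpm2, another tropomyosin, by 1.01 ± 0.36 with its other probe at -0.12. Adjusted p in limma was 0.267 for Fhl1 and 0.256 for Pdlim7. Myl6, Myl9, Csrp1, Dstn, Mustn1, Myocd, Cnn2 and Ppp1r14a, which also had an unadjusted p under 0.05, were singled out after their values were seen. Myl6, the essential myosin light chain, read 687, 700.4 and 607 against 1079.6, 1277 and 1435, without overlap, a difference of 0.92 ± 0.28, and its other probe gave 1.22. Myl9, the regulatory light chain whose phosphorylation starts contraction, read 121, 139 and 86.7 against 271, 139 and 500.4, where KO LCA replicate 2 lay level with the highest WT array. It differed by 1.23 ± 0.40, or 0.78 without KO LCA replicate 3. Csrp1, a cysteine-rich LIM protein of smooth muscle, read 168, 166 and 102 against 275, 489 and 557, a difference of 1.57 ± 0.45. Dstn, the actin-severing protein destrin, differed by 0.92 ± 0.40, Mustn1 by 0.84 ± 0.25, or 0.51 without KO LCA replicate 1, and Myocd, the cardiac and smooth muscle cofactor of SRF, by 0.24 ± 0.10. Cnn2, Ppp1r14a and Tagln had WT values at background. Tagln, transgelin, had means of 94.5 ± 0.639 in WT LCA and 110.0 ± 3.75 in KO LCA (SD, n = 3), at least 1.01-fold higher, and Ppp1r14a, an inhibitor of myosin phosphatase, had means of 94.2 ± 8.25 and 134 ± 19.99, at least 1.23-fold. Other defining markers of smooth muscle gave no such difference. Myh11, smooth muscle myosin, read 101, 87.3 and 90.7 against 98.8, 88.1 and 118, overlapping, and Cnn1, calponin, was above background on no array of either group. Of the 30 contractile genes tested, 21, 15 and 4 exceeded the receptor level on WT LCA replicates 1 to 3 and 24, 22 and 25 on those of KO LCA, and their summed intensity ran from 4105 to 5389 in WT and from 7811 to 9572 in KO. In RNA from carotid arteries, more cells of a type and more RNA per cell cannot be told apart. Which layers of the wall the RNA came from was not tested.

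**Figure D3:**
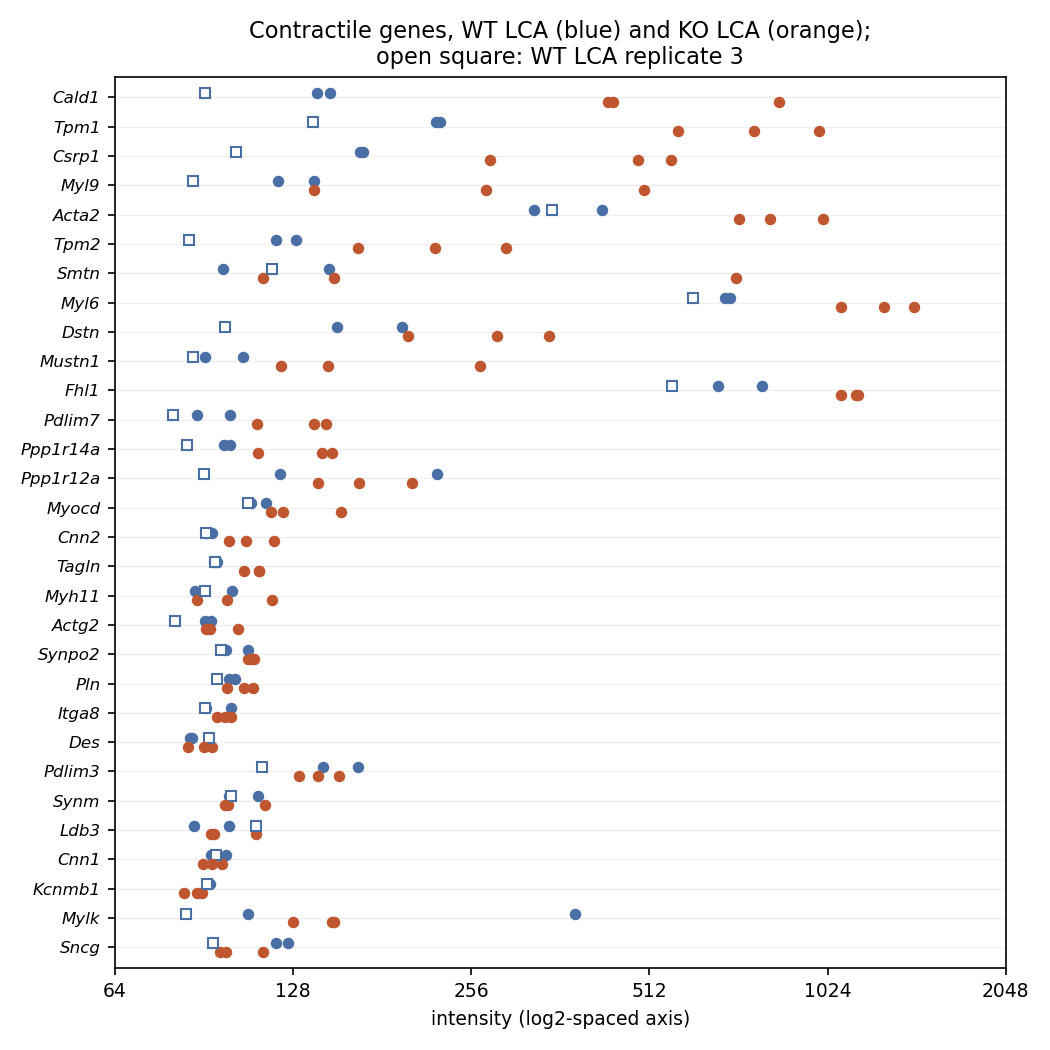
Intensity (horizontal axis, log2-spaced) of the 30 contractile genes tested, ordered by difference, in WT LCA (blue, upper point of each row) and KO LCA (orange, lower point), with WT LCA replicate 3 as an open square. The KO points of Tpm1, Acta2, Cald1, Myl6 and Fhl1 lie to the right of all their WT points, while Cnn1 lies near the floor in both groups.

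Srf itself and several actin regulators had higher values too. Of 31 tested genes of the actin cytoskeleton and SRF cofactors, 5 (16.1%) were higher and 0 lower at an unadjusted p under 0.05. Of all genes 4.88% were higher, and of the brightest class 11.9%. A difference above 0 was measured for 28 (90.3%), where 47.2% of all genes had one and 52.8% lay below it. In the brightest class 62.0% lay above 0. Srf itself read 183, 187 and 97.1 in WT LCA and 476, 769.8 and 427 in KO LCA, and all KO values were above all WT values, of which WT LCA replicate 3 was the lowest. Its difference was 1.85 ± 0.40, adjusted p = 0.215 in limma, or 1.54 without that array, and its other probe, at background, gave -0.05. Tpm4 differed by 1.54 ± 0.36, Vcl, the focal adhesion protein vinculin, by 0.71 ± 0.19, and Flna, filamin A, by 0.40 ± 0.15. The median over the list was 0.15, or 0.09 without WT LCA replicate 3, and 0.17 in RCA, where Srf differed by 0.28 ± 0.40.

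In the TGF-beta pathway, the ligand gene Tgfb2 had higher values, as did several responsive genes; ligands, receptors and Smads as one list, Tgfb2 included, had a median near 0. Tgfb2 read 141, 163 and 117 in WT LCA and 499, 484 and 387 in KO LCA. Every KO value was over 2 times the highest WT value. The difference was 1.71 ± 0.25, adjusted p = 0.0715, and 1.58 without WT LCA replicate 3. Tgfb1 differed by 0.01 ± 0.10, near background, and Tgfb3 was at background in KO LCA. Ltbp1, which tethers latent TGF-beta to the matrix, differed by 0.66 ± 0.17, but its 5 other kept probes spanned -0.20 to 0.07. Pmepa1, an inhibitor induced by the pathway, differed by 0.30 ± 0.08 and the co-receptor gene Eng, endoglin, by 0.32 ± 0.09. In that list 4 of 27 tested genes were higher at an unadjusted p under 0.05 and 0 lower. The 4 were 14.8%, against 4.88% of all genes and 11.9% of the brightest class. Without WT LCA replicate 3 the counts were 4 and 1. The list's median was 0.01.

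Of 23 tested TGF-beta responsive genes, 9 (39.1%, against 4.88% of all genes) were higher at an unadjusted p under 0.05 and 0 lower. Their median difference was 0.30, or 0.22 without WT LCA replicate 3, and -0.02 in RCA. Ccn2, connective tissue growth factor, read 658, 1109 and 602 in WT LCA and 2083, 2083 and 1419 in KO LCA. The groups did not overlap, with KO LCA replicate 3 nearest to WT. It differed by 1.27 ± 0.30, adjusted p = 0.271, and its other probe gave 1.01. In RCA its difference was 1.94 ± 0.30. Timp1, an inhibitor of metalloproteinases, read 119, 108 and 105 against 311, 145 and 268, a difference of 1.06 ± 0.25, adjusted p = 0.271, and -0.06 in RCA. Thbs1, thrombospondin 1, which can activate latent TGF-beta, differed by 1.26 ± 0.36, but by 0.78 without WT LCA replicate 3, since it read 257, 268 and 97.5 on the 3 WT LCA arrays and 514, 533 and 336 on those of KO LCA. Col1a1 differed by 0.42 ± 0.14, or 0.27 without KO LCA replicate 3, and Col1a2 by 0.44 ± 0.17, or 0.25 without KO LCA replicate 2. Cdkn1a, a cell cycle inhibitor, differed by 0.35 ± 0.12, or 0.22 without KO LCA replicate 1, and Tgfbi by -0.07 ± 0.06. Acta2, Pmepa1 and Tagln also counted, so this list shares members with those above.

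Matricellular genes, whose secreted proteins sit in the matrix and signal to cells, held some of the largest differences. Of 14 tested, 5 (35.7%, against 4.88% of all genes) were higher at an unadjusted p under 0.05 and 0 lower. The median was 0.42, or 0.34 without WT LCA replicate 3. Ccn1 read 491, 324 and 106 in WT LCA and 1031, 1411 and 1066 in KO LCA. WT LCA replicate 3 was the lowest by far, and all KO values were above all WT values. The difference was 2.17 ± 0.74, or 1.54 without that array, with adjusted p = 0.537 and 0.715 in limma, and the 2 other probes gave 1.78 and 2.03. Ccn3 read 106, 96.1 and 88.2 against 320.2, 226 and 1139, with KO LCA replicate 3 far above the other arrays, a difference of 2.17 ± 0.58. Ccn5 was at background in WT LCA, with means of 89.4 ± 7.48 and 128 ± 27.1, at least 1.16-fold higher. With Ccn2 and Thbs1 these were the 5 that counted, of which Ccn1 did not reach that level without WT LCA replicate 3.

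The elastic fibre genes, the group of fibulin-5 itself, mostly stayed near 0. Of 20 tested, 4 (20%, against 4.88% of all genes) were higher and 0 lower at an unadjusted p under 0.05. The median was 0.02, or -0.04 without WT LCA replicate 3. The counts without that array were 4 higher and 1 lower. Mfap5, a microfibril-associated glycoprotein, read 116, 123 and 103 in WT LCA and 194, 168 and 187 in KO LCA, without overlap, a difference of 0.68 ± 0.18, adjusted p = 0.335. Fbln1, fibulin-1, a relative of fibulin-5, read 105, 125 and 91.0 against 164, 183 and 320.0, a difference of 1.01 ± 0.24, and its 2 other kept probes gave 0.07 and 0.25. Mfap4 was at background in WT LCA, with means of 90.3 ± 3.48 and 118 ± 7.52, at least 1.09-fold higher. Ltbp1, given above, was the fourth. Eln, elastin itself, ranged widely, at 509, 237 and 113 in WT LCA and 192, 316 and 162 in KO LCA. The groups overlapped, the difference was -0.16 ± 0.70, or -0.70 without WT LCA replicate 3, and its other probe gave 0.76, so no direction could be read for it.

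Several basement membrane genes had higher values, and fibrillar collagens had a median near 0. Of 18 tested basement membrane genes, 6 (33.3%, against 4.88% of all genes) were higher and 0 lower at an unadjusted p under 0.05. Without WT LCA replicate 3 the counts were 3 and 0. Tinagl1, a matrix protein of that layer, read 197, 154 and 151 against 339, 312 and 279.8, without overlap, a difference of 0.90 ± 0.15, adjusted p = 0.101 in limma, and its other probe gave 0.89. In RCA it differed by 1.00 ± 0.15. Col18a1, the source of endostatin, read 116, 104 and 91.5 against 220.1, 152 and 738, where KO LCA replicate 3 was far above the rest, a difference of 1.49, or 0.82 without that array, and its 2 other probes gave 0.05 and 0.18. Col4a2 differed by 0.98 ± 0.32, or 0.52 without KO LCA replicate 1, Col4a1 by 0.77 ± 0.28, or 0.49 without WT LCA replicate 3, and Npnt, nephronectin, by 0.29 ± 0.10. Of 22 tested genes for fibrillar collagens and their processing, 4 (18.2%) were higher and 1 (4.55%) lower, with a median of -0.01. Pcolce2, an enhancer of procollagen processing, read 159, 141 and 98.3 against 384, 437 and 373, all KO values above all WT values, a difference of 1.61 ± 0.34, adjusted p = 0.190, with its other probe at 0.11. P3h2, a collagen prolyl hydroxylase, was the lower one at -0.53 ± 0.18, or -0.31 without WT LCA replicate 2.

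Among 28 tested metalloproteinases and inhibitors, 3 were higher and 0 lower at an unadjusted p under 0.05. The 3 were 10.7%, against 4.88% of all genes and 11.9% of the brightest class, and 2 were inhibitors, Timp1 and Timp3. Without WT LCA replicate 3 the counts were 4 higher and 2 lower. Timp3, an inhibitor bound to the matrix, read 589.7, 385 and 634 in WT LCA and 975, 1172 and 1090.4 in KO LCA. The groups did not overlap, and WT LCA replicate 2 was the lowest. It differed by 1.04 ± 0.25, adjusted p = 0.271, 1.18 without WT LCA replicate 3, and its 2 other probes gave 1.45 and 1.49. Mmp9, gelatinase B, differed by -0.13 ± 0.07, overlapping between groups. Mmp3 was at background in WT LCA and at least 1.13-fold higher in KO LCA, with means of 94.1 ± 3.92 and 124 ± 23.1. Of 34 integrin and focal adhesion genes, 6 (17.6%) were higher and 0 lower, against 5 and 1 without WT LCA replicate 3. Among the 6 was Itga5, the fibronectin receptor subunit, at 0.66 ± 0.19, with its other probe at 0.52.

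**Figure D4:**
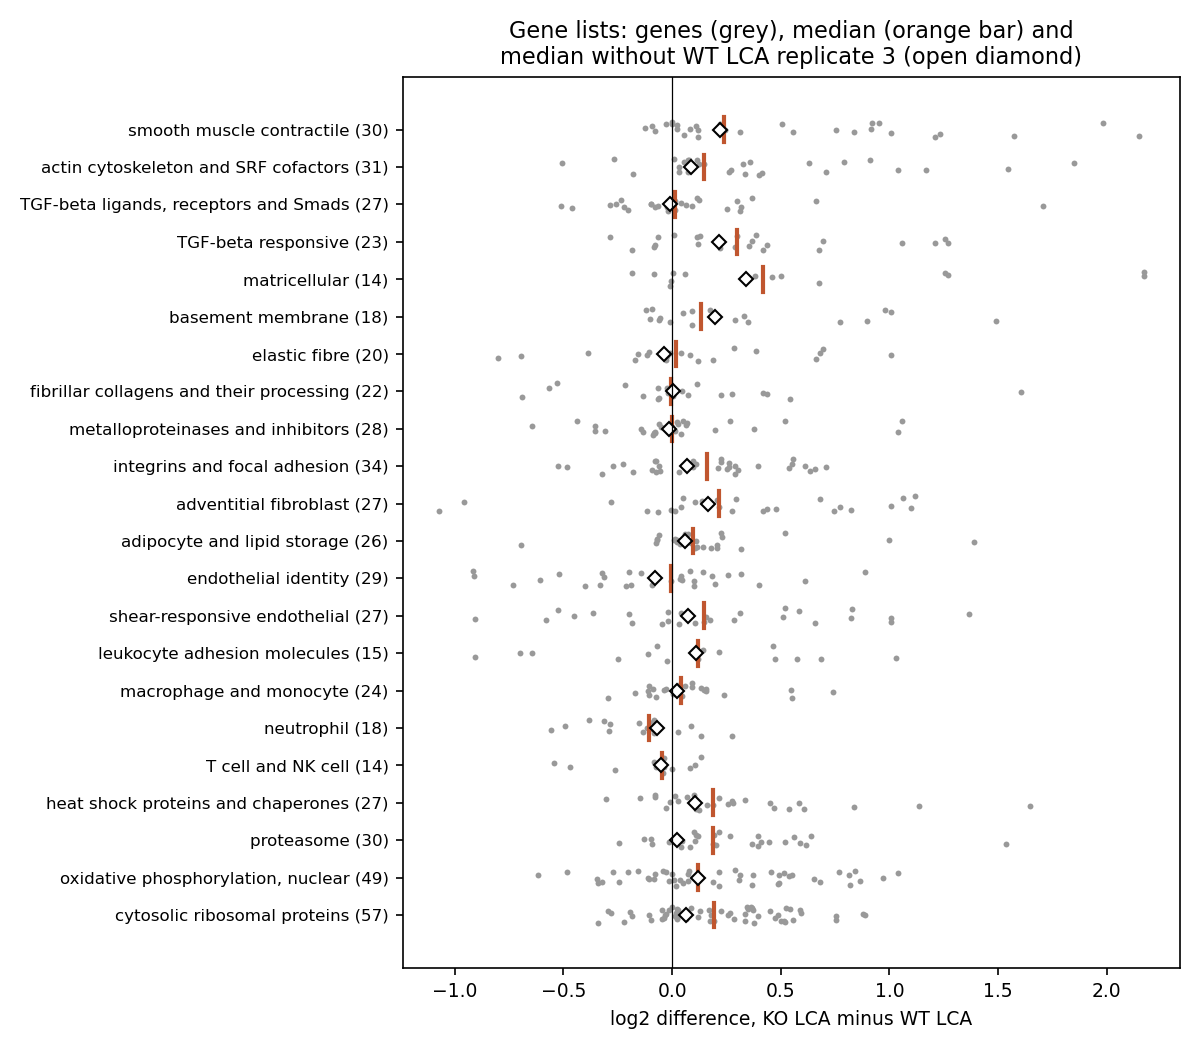
Log2 difference of KO LCA minus WT LCA (horizontal axis) for the tested members of 22 gene lists (rows, number of genes in brackets), with the median as an orange bar and the median without WT LCA replicate 3 as an open diamond. The medians are highest for the matricellular list at 0.42, the TGF-beta responsive list at 0.30 and the contractile list at 0.24, and differ little from 0 for elastic fibres at 0.02 and endothelial identity at -0.005.

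Several markers of adventitial fibroblasts and some of fat, tissues that lie around the artery wall, had higher values in KO LCA. Of 27 tested fibroblast markers, 10 were higher and 0 lower at an unadjusted p under 0.05 (8 and 0 without WT LCA replicate 3), with a median of 0.215. The 27 tested summed to 3918 to 5345 in WT LCA and 4688 to 6734 in KO LCA, ranges that overlap. Dpt, dermatopontin, read 98.1, 127 and 92.5 against 221, 165 and 322, without overlap, a difference of 1.12 ± 0.26, adjusted p = 0.256. Cygb, cytoglobin, differed by 0.75 ± 0.17, and Dcn, the proteoglycan decorin, read 151, 253 and 139 against 604, 231 and 373, overlapping, with a difference of 1.10 ± 0.43. Pdgfra, another defining marker, differed by 0.21 ± 0.11. Fat markers counted 4 higher and 0 lower of 26 tested, or 15.4% against 4.88% of all genes and 11.9% of the brightest class, and their median of 0.10, or 0.06 without WT LCA replicate 3, lay near that of the brightest class. Pck1, the gluconeogenic enzyme that fat cells use to make glycerol, was at background in WT LCA (94.4, 90.9 and 89.6) and read 337, 212 and 194 in KO LCA, at least 2.22-fold higher, with means of 91.6 ± 2.49 and 248 ± 77.8 (SD, n = 3), adjusted p = 0.129, and its other probe gave 1.07. Fabp4, a fatty acid carrier of fat and endothelial cells, read 160.5, 117 and 302 against 427, 329 and 323. Plin1, a defining marker of fat cells, was at background in both groups, and Adipoq, which encodes adiponectin, was below the filter on low signal. The 26 fat genes tested summed to 2716 to 2943 in WT LCA and 2981 to 3552 in KO LCA. The part of fibroblast and fat RNA in the matrix and TGF-beta results was not tested.

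Endothelial markers had differences of both signs. Of 29 tested, 2 were higher and 2 lower at an unadjusted p under 0.05, and 2 and 6 without WT LCA replicate 3. Their median was -0.005, or -0.08 without it. The summed intensity of the 29 tested was 6781 to 7693 in WT LCA and 6853 to 8904 in KO LCA. Of the defining markers, which also include Tie1 and Kdr, Pecam1, Cdh5 and Vwf were above background on all arrays of both groups. They differed by 0.40 ± 0.50, 0.10 ± 0.14 and 0.26 ± 0.27, values whose sign changed when single arrays were left out. Tie1 had lower values and is given below, and a kept Kdr probe near background differed by 0.04. Cd93, a lectin-like receptor of endothelium, read 176, 189.7 and 261 in WT LCA and 394, 425 and 329.9 in KO LCA, without overlap, a difference of 0.89 ± 0.22, adjusted p = 0.284, with its other probe at 1.09. Sox18, an endothelial transcription factor, read 206, 177 and 182 against 122, 137 and 135, lower on every KO array, a difference of -0.52 ± 0.17. Tie1, an orphan receptor of endothelium, read 424, 183 and 138 against 109, 122 and 121, a difference of -0.91 ± 0.33, or -1.25 without WT LCA replicate 3 and -0.44 without WT LCA replicate 1, the highest array.

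Of the 12 lower genes named by rule, Gja5 had the largest difference. Its values were 760.1, 941 and 599.7 in WT LCA and 172, 191 and 253 in KO LCA, and the lowest WT value was above 2 times the highest KO value. The difference was -1.90 ± 0.34, adjusted p = 0.129 in limma, and -2.06 without WT LCA replicate 3, adjusted p = 0.147. All 3 other kept probes pointed the same way, from -1.86 to -0.51. In RCA Gja5 read 687, 1558 and 714 in WT and 513, 393 and 270.3 in KO, a difference of -1.27 ± 0.34. Hey2 and Efnb2, arterial genes of the Notch pathway that are known to be active in the same endothelium, differed by -0.45 ± 0.19 and -0.48 ± 0.22, the second overlapping between groups. Without WT LCA replicate 3 Hey2 differed by -0.29, and Efnb2 by -0.24 without WT LCA replicate 1 and -0.30 without KO LCA replicate 1. Gja1, connexin 43, differed by 0.57 ± 0.21, or 0.27 without KO LCA replicate 3.

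Flow-responsive and adhesion genes also pointed both ways. In the shear-responsive list, 5 of 27 tested genes (18.5%) were higher and 2 (7.41%) lower at an unadjusted p under 0.05. Klf2 and Klf4, transcription factors that laminar flow is known to induce, differed by 0.15 ± 0.16 and -0.02 ± 0.29, and Nos3, endothelial nitric oxide synthase, by 0.04 ± 0.25, each within about 1 SE of 0. Klf2 and Nos3 lay near background in WT LCA, at 95.9 to 109 and 89.8 to 121. Other kept probes of Klf4 gave 0.24 and 0.72. Jam2, a junctional adhesion molecule, read 309, 265 and 253 in WT LCA and 145, 132 and 163 in KO LCA, with no overlap. It differed by -0.91 ± 0.19, adjusted p = 0.162, and its 5 other kept probes ran from -0.84 to 0.0041. Slco2a1, a prostaglandin transporter, differed by -0.58 ± 0.21. Lmo4, a LIM-only regulator, read 226, 419 and 367 against 1425, 534 and 779, a difference of 1.36 ± 0.35 with its other probe at 0.32, and Angpt2, a ligand that loosens endothelial junctions, differed by 0.58 ± 0.15. Dusp1, a phosphatase of MAP kinases, differed by 1.01 ± 0.37 in LCA and -0.50 in RCA, and the gap of 1.51 ± 0.52 between both sides did not pass (adjusted p = 0.905 in limma). Of 15 adhesion genes, 4 (26.7%, against 4.88% of all genes) were higher and 2 (13.3%, against 2.00%) lower. Mcam, an adhesion molecule of endothelium and smooth muscle, read 102, 124 and 109 against 200.3, 172 and 165, a difference of 0.69 ± 0.11, adjusted p = 0.103, and its 2 other probes gave 0.67 and 0.75. The selectin genes differed in opposite directions, Sele by 1.03 ± 0.35 and Selp by -0.70 ± 0.27, or -0.39 for Selp without WT LCA replicate 3. Vcam1 differed by 0.46 ± 0.33, or 0.18 without WT LCA replicate 2, and its other kept probes included values of 0.29, 0.04 and -0.37. Icam1 differed by 0.47 ± 0.20, or 0.29 without the same array, against 1.44 ± 0.20 in RCA, a gap of -0.97 ± 0.28 with adjusted p = 0.905 in limma.

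Some growth factor and clotting genes had higher values. Esm1, a proteoglycan made by endothelium under VEGF, was at background in WT LCA (87.4, 85.6 and 92.7) and read 291, 131 and 151 in KO LCA, at least 1.65-fold higher, with means of 88.5 ± 3.7 and 191 ± 87.1, adjusted p = 0.268 in limma. Pdgfb, a mitogen of smooth muscle, differed by 0.58 ± 0.17. In that list 6 of 31 (19.4%, against 4.88% of all genes) were higher and 0 lower at an unadjusted p under 0.05. Without WT LCA replicate 3 the counts were 6 and 1. F2r, the thrombin receptor, read 252, 434 and 249 against 564, 575 and 475, all KO values above all WT values, a difference of 0.83 ± 0.20. Plat, tissue plasminogen activator, differed by 0.76 ± 0.23, and its other probe by 0.02. With Plaur these were the 3 of 21 clotting and fibrinolysis genes at that level, and 0 were lower.

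Leukocyte markers mostly lay near background. The macrophage list had 3 of 24 tested genes (12.5%, against 4.88% of all genes) higher and 0 lower at an unadjusted p under 0.05. Without WT LCA replicate 3 it had 2 higher and 1 lower. It summed to 2649 to 3488 in WT LCA and 2559 to 3665 in KO LCA. Cd163, the scavenger receptor for haemoglobin on resident macrophages, was at background in WT LCA (97.5, 86.6 and 81.7) and read 139, 141 and 165 in KO LCA, at least 1.36-fold higher, with means of 88.6 ± 8.07 and 148 ± 14.4 and adjusted p = 0.0715. In RCA it read 97.2, 103 and 83.4 in WT and 79.7, 94.8 and 91.0 in KO. Of the defining markers, Adgre1 differed by -0.11 ± 0.07, near background, while Csf1r was at background in KO LCA and Mrc1 in WT LCA. The neutrophil list counted 0 higher and 1 lower of 18, with S100a9 at 709, 147 and 334 in WT LCA and 207, 313 and 169 in KO LCA, overlapping. The lists for T and NK cells (14 tested), B cells (10), mast cells (9) and red cells (10) had 0 members at that level in either direction. Without WT LCA replicate 3 the T and NK cell list and the B cell list each had 1 lower member. The defining markers Cd3e and Cd79a were below the filter, and Kit was at background in both groups. Skeletal muscle, nerve and thyroid markers, for tissue beside the artery, had 1, 0 and 0 higher and 0, 1 and 0 lower members of 13, 18 and 8 tested, and the defining genes Ckm, Acta1 and Tg were below the filter. Without WT LCA replicate 3 these lists had 0 higher and 0, 2 and 1 lower members. Clec9a, a receptor of conventional dendritic cells, stood out on the lower side, at 231, 199.6 and 254 in WT LCA and 116, 114 and 111 in KO LCA. The groups did not overlap. It differed by -0.998 ± 0.13, adjusted p = 0.0707, and -0.61 ± 0.13 in RCA, but its other probe, near background, gave -0.05.

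Chaperone, proteasome and respiratory chain genes had medians above 0, as did the brightest class of genes with a median of 0.10 and 11.9% higher. Heat shock proteins and chaperones counted 6 of 27 higher and 0 lower at an unadjusted p under 0.05, the proteasome 6 of 30 and 0, and nuclear genes of oxidative phosphorylation 9 of 49 and 0. Without WT LCA replicate 3 these lists counted 5 and 0, 4 and 0, and 6 and 1. Their medians were 0.19, 0.19 and 0.12, and 0.11, 0.02 and 0.12 without WT LCA replicate 3, so the proteasome's median was near 0 without that array. Hspa9, the mitochondrial Hsp70 mortalin, read 146, 135 and 91.6 against 258, 258 and 289, without overlap, a difference of 1.14 ± 0.17, adjusted p = 0.0740, with its other probe at 0.84. Hsp90aa1, the inducible Hsp90, read 296, 195 and 154 against 518, 1076 and 488, a difference of 1.65 ± 0.34, and its 2 other probes gave 0.14 and 0.55. Atf4, the transcription factor of the integrated stress response, read 182, 157 and 94.3 against 326, 465 and 399.9, a difference of 1.50 ± 0.30, adjusted p = 0.146, with its other probe at 0.46. Its target Ddit3 differed by 0.51 ± 0.21, or 0.31 without WT LCA replicate 3. Immediate early genes counted 7 of 37 higher and 0 lower, led by Ccn2 and Klf6, a zinc finger factor of injury (682, 686 and 1054 against 1317, 1684 and 1495, 0.92 ± 0.22). Of the classical members, Fos was at background in WT LCA and Egr1 differed by 0.72 ± 0.34, or 0.45 without WT LCA replicate 3 and 0.41 without KO LCA replicate 2. Glycolysis and hypoxia genes counted 5 higher and 1 lower of 31. Pfkp, a phosphofructokinase, differed by 0.57 ± 0.10, with another kept probe at 0.10. Gapdh differed by 0.69 ± 0.16 and Slc2a1, the glucose transporter GLUT1, by 0.66 ± 0.16.

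Antioxidant genes held both directions. Gpx3, the secreted glutathione peroxidase, was at background in WT LCA, with means of 93.0 ± 0.915 in WT and 151 ± 35.5 in KO, at least 1.37-fold higher. Cat, catalase, read 282, 442 and 296 against 142, 185 and 159, lower on every KO array, a difference of -1.05 ± 0.35, with its other probe at -0.27. Sod3, the extracellular superoxide dismutase that fibulin-5 is known to bind, read 123, 387 and 255 in WT LCA and 116, 109 and 109.5 in KO LCA. WT LCA replicate 1 lay near the KO values, although the groups did not overlap. It differed by -1.04 ± 0.33, or -0.67 without WT LCA replicate 2, adjusted p = 0.493 in limma, and by -0.22 in RCA. Gstt1, a glutathione transferase, read 173, 152 and 209 against 101, 119 and 106, a difference of -0.70 ± 0.13.

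The remaining genes of the 24 named by their p belonged mostly to no such group. Timm8a1, an import chaperone of mitochondria, read 115, 110.1 and 91.1 in WT LCA and 265, 219.5 and 189.8 in KO LCA, a difference of 1.08 ± 0.14. Plaur, the receptor that holds urokinase at the cell surface, read 101, 112 and 93.1 against 161, 189 and 161, a difference of 0.74 ± 0.11. Both had every KO value above every WT value, as did the next 3 genes. Slc39a13, the zinc transporter ZIP13, read 114, 116 and 95.7 against 169.6, 182 and 196, a difference of 0.75 ± 0.11. Gspt1, a translation termination factor, read 119.8, 118 and 95.4 against 157, 161 and 178, a difference of 0.58 ± 0.09. Wdr74, a ribosome assembly factor, had a small but even difference of 0.41 ± 0.05. Adjusted p of the 5 ran from 0.0707 to 0.0740 in limma, and Gspt1 passed without WT LCA replicate 3 (0.47, adjusted p = 0.0430). The 3 other probes of Slc39a13 gave -0.10 to -0.04 and the other probe of Gspt1 0.10. Chst1, a sulfotransferase of keratan sulfate, was at background in WT LCA, with means of 95.4 ± 2.68 and 165 ± 29.1, at least 1.51-fold higher. 

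On the lower side, Sardh, the mitochondrial enzyme sarcosine dehydrogenase, read 292, 269 and 196 in WT LCA and 111, 135 and 117 in KO LCA, while RCA was at 108, 109 and 122 in WT and 112, 101 and 114 in KO. WT LCA was thus the one group of 4 with high values. The difference in LCA was -1.04 ± 0.14, adjusted p = 0.0707, and it passed without WT LCA replicate 3 at -1.21, adjusted p = 0.00278. Anapc4, a subunit of the anaphase-promoting complex, read 516, 530.2 and 343 against 235, 279 and 202, a difference of -0.94 ± 0.21, and Rab1a, a GTPase of transport from the endoplasmic reticulum, 206, 345 and 361 against 148, 161 and 153, a difference of -0.94 ± 0.19 with its other probe at 0.23. Slc8a1, the sodium-calcium exchanger, differed by -0.87 ± 0.22, with its 2 other probes at -0.12 and 0.06, Tbc1d8, a member of the family of Rab-inactivating proteins, by -0.84 ± 0.13, Tm6sf1 by -0.37 ± 0.06 and Tmem59 by -0.29 ± 0.07. Ada, adenosine deaminase, was at background in KO LCA, with means of 133 ± 5.88 in WT and 92.4 ± 3.85 in KO, at least 1.34-fold lower. Adjusted p of these genes after Sardh ran from 0.0715 for Tm6sf1 to 0.308 for Slc8a1 in limma.

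The genes that passed depended on single arrays, and Schip1 was the one gene that passed without each of 5 of the 6 LCA arrays in turn. Without WT LCA replicate 1, 21 genes passed, among them Slc8a1 at -1.19, Rab1a at -1.20, Sod3 at -1.50, Tpm1 at 2.10, Hspa9 at 1.27, Timm8a1 at 1.15, Wdr74 at 0.44, Pfkp at 0.68, Slc2a1 at 0.86 and P3h2 at -0.77. Without WT LCA replicate 2, 9 genes passed, among them Tbc1d8 at -1.002, Clec9a at -1.09 and F2r at 1.10. Without KO LCA replicate 2, 9 genes passed, among them Timp1 at 1.39, and without KO LCA replicates 1 and 3 the counts were 0 and 2. Without WT LCA replicate 3, 14 genes passed limma's test, 4 higher (0.0260%) and 10 lower (0.0650%) in KO LCA. Schip1, Tpm1, Gspt1 and Sardh were among them. The others were singled out after their values were seen. Tgif1, a repressor in TGF-beta signalling, read 239, 337 and 86.7 in WT LCA and 88.5, 92.7 and 103 in KO LCA. WT LCA replicate 3 lay beside the KO arrays and apart from the other WT arrays, so the difference was -1.02 ± 0.38 with it (adjusted p = 0.618) and -1.59 without it (adjusted p = 0.00278). Wasl, the actin nucleation factor N-WASP, read 403, 405 and 117 against 149, 151 and 143, and differed by -0.86 ± 0.41 with that array and -1.46 without it. Cyth1, cytohesin 1, a regulator of integrin adhesion, read 256, 228 and 109.6 against 105, 102 and 114, -0.80 ± 0.26 with and -1.18 without it. Bri3, a membrane protein of lysosomes, was on the higher side, at 272, 246 and 435 against 624, 481 and 628, 0.90 ± 0.20 with and 1.15 without it. The remaining lower genes were Nfe2, at background in KO LCA, and Cyb561d1, Sh3glb2, Spg21, Hspa2 and C130074G19Rik, the 5 at -0.78, -1.22, -1.49, -0.82 and -1.08 without that array, and at -0.47, -0.80, -0.87, -0.59 and -0.71 with it.

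The remaining lists are given by their counts at an unadjusted p under 0.05, against 4.88% of all genes higher and 2.00% lower. There, ribosomal proteins counted 3 higher and 0 lower of 57, although 42 lay above 0, with a median of 0.19 or 0.06 without WT LCA replicate 3. Cell cycle genes counted 3 higher and 0 lower of 31, and 0 of either without that array; Ccnd1, cyclin D1, read 239, 203 and 239 in WT LCA and 369.9, 499 and 697 in KO LCA, a difference of 1.16 ± 0.47. Intermediate filament and phenotype switch genes counted 4 higher and 0 lower of 20, with a median of 0.13. Besides Schip1 these included Nes, nestin, a filament protein of immature muscle and other cells, at 102, 89.7 and 99.5 against 163, 232 and 192, a difference of 1.00 ± 0.18, and Vim, vimentin, at 0.44 ± 0.19. The list holds Schip1, the gene that passed, and was chosen with earlier results of these data known, so its count is a description only. Interferon-stimulated genes counted 1 higher and 2 lower of 28, chemokines and cytokines 4 and 2 of 26, apoptosis and p53 genes 2 and 1 of 25, and genes of the unfolded protein response 2 and 2 of 36. Without WT LCA replicate 3 these lists counted 0 and 3, 2 and 0, 0 and 4, and 1 and 2. Vasoactive and channel genes counted 1 and 2 of 34, with Edn1, the constrictor endothelin 1, at 518, 341 and 295 against 866, 892 and 548, a difference of 1.01 ± 0.41, or 0.84 without WT LCA replicate 3. Notch and ephrin genes counted 1 and 2 of 23, clock genes 1 and 1 of 17, sterol synthesis genes 0 and 1 of 17, platelet genes 2 and 1 of 9, and lymphatic genes 1 and 0 of 8, led by Pdpn, podoplanin, at 0.46 ± 0.09.

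The same genotypes were compared in the untouched RCA. No gene passed limma's test there. The 3 KO and 3 WT values did not overlap for 6.78% of genes that were higher and 5.21% that were lower, with 382 genes (2.48%) higher and 277 (1.80%) lower at an unadjusted p under 0.05. For the 24 genes named by their p in LCA, 22 had the same sign in RCA and 14 also had an unadjusted p under 0.05 there. The 2 with the opposite sign were Anapc4, at 0.14, and Cd163, which lay at or near background in RCA. On the higher side Tpm1 differed by 0.97 ± 0.25 in RCA, Tgfb2 by 1.03 ± 0.25 and Acta2 by 0.74 ± 0.18. Over all genes, 142 had an unadjusted p under 0.05 on both sides, which is 13.4% of those in LCA and 21.5% of those in RCA, and 130 of the 142 had the same sign. Across the 15395 genes, which are not independent replicates, the differences on both sides correlated at Pearson's r = 0.187 and Spearman's rho = 0.123. The difference between the LCA and RCA genotype effects was tested for every gene, and none passed, with 343 (2.23%) higher and 203 (1.32%) lower at an unadjusted p under 0.05. Among the 24, the gap was -0.99 ± 0.20 for Sardh and 0.81 ± 0.17 for Schip1, each with adjusted p = 0.905 in limma. The 24 were chosen for their p in LCA, so their values on both sides are a description. No gene was shown to respond differently to the genotype on the ligated side.

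**Figure D5:**
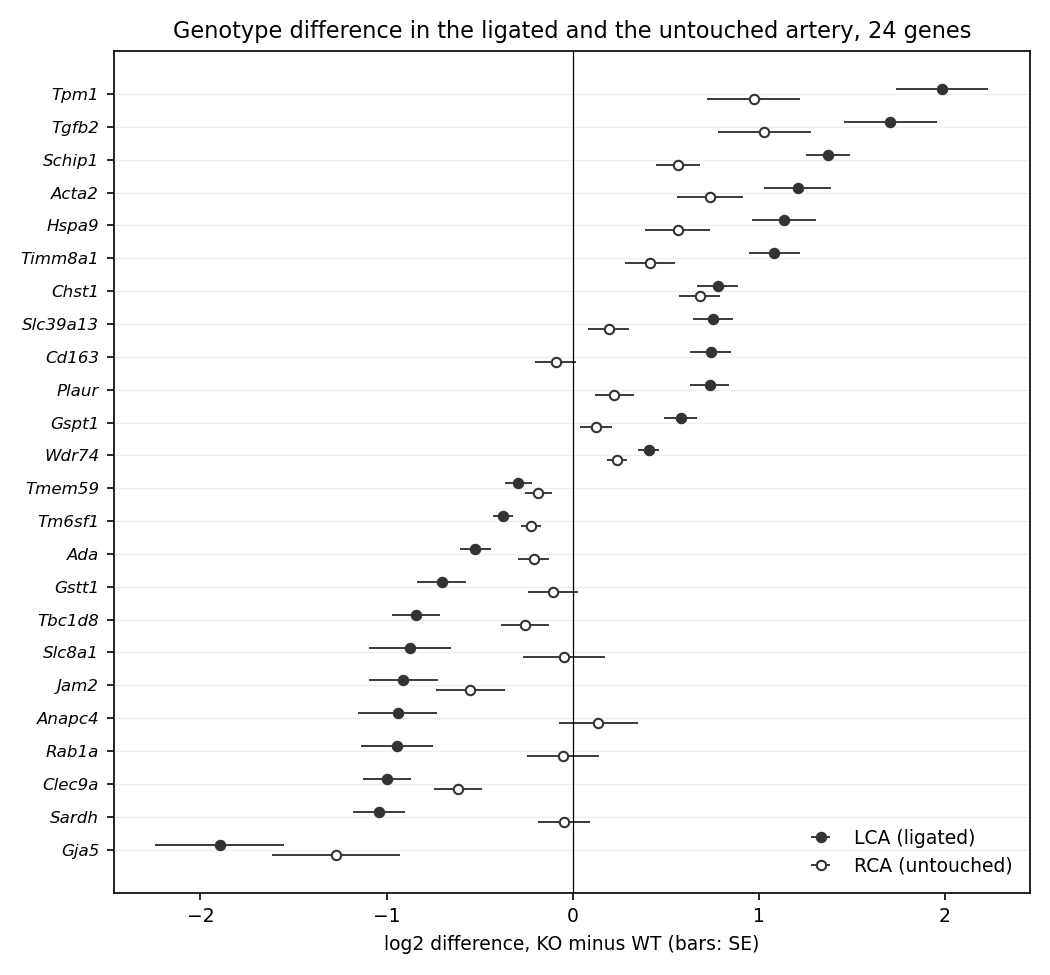
Log2 difference of KO minus WT (horizontal axis, bars of 1 SE) for the 24 genes named by their p in LCA, in the ligated LCA (filled) and the untouched RCA (open). Open points lie on the same side of 0 as filled ones for 22 of the 24, and for Sardh, Rab1a and Slc8a1 they lie near 0; for Chst1, Cd163 and Ada one group was at background, so their points are not bounds.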

How the data were processed

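RNA from carotid arteries was extracted with a column kit, checked on a Bioanalyser and amplified into biotin-labelled cRNA for one-colour Illumina arrays, per the labels' protocols. The authors deposited 1 linear intensity for each of 45281 probes and 12 arrays, with no negative value; the sorted values have the same range on every array, as after quantile normalization, though no source used here names its tool or any background step. Of the probes, 34885 have 1 gene symbol, 18 have several and 10378 have none. Kept probes reached the array median on at least 3 arrays (25796 probes), and each of the 15395 genes was represented by its probe with the highest mean log2 intensity, the others being given as other kept probes. The log2 values were fitted with limma 3.58.1 in R 4.3.3, as 4 group means over 12 arrays with 8 residual degrees of freedom, two-sided, with Benjamini-Hochberg adjustment over all tested genes at 0.05. A standard error given with a log2 difference is that of this fit. An exact permutation test of 3 against 3 arrays cannot give a p below 0.1 and was not used. A gene not above the 95th percentile of the receptor probes on any array of its lower group was taken as at background there. Its fold is a bound, in which each value of the lower group was raised to that percentile of its array. The bound was taken between means of log2 values, so it does not follow from the linear means printed beside it.

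Named were Fbln5, the gene that passed, for each direction the 12 genes of smallest p whose groups did not overlap and whose higher group was above background on all arrays, and from each of 45 gene lists the 5 members with the smallest p and the defining markers; other genes are said to be singled out after their values were seen. The members and lists were chosen with earlier results of these data known. The calculation was tested on simulated data. Alternatives covered the replicate block, array weights, prior, filter, probe rule, offset, normalization and leaving out each array. Same-numbered WT and KO LCA arrays correlated at 0.0532, -0.0814 and -0.124 in their deviations from the group means. They differ in genotype, so these values cannot show whether 2 arrays share a mouse. Same-numbered LCA and RCA arrays correlated at 0.038, 0.052 and 0.074 in WT and at -0.013, -0.0021 and 0.042 in KO. The labels do not say whether these share a mouse, and the numbers were not taken to pair the samples.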

Additional observations from a re-analysis of the deposited data

How the results depend on the processing

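The count of genes passing in LCA (1 in the main setting) was 2 with array weights, 15 with the kept probes of a gene averaged, 10 with every probe tested on its own, and 0 both with a trended, robust prior and with the 2 LCA groups alone, and it ran from 0 to 21 when single arrays were left out. The causes were not tested. It stayed at 1 with the replicate block, where Schip1 had adjusted p = 0.0486 in limma; the block changed no other call, and the numbers were not shown to pair the samples. In RCA and in the difference between both sides the count was 0 in each alternative that kept all arrays, and ran from 0 to 3 without single arrays. Genes lower at an unadjusted p under 0.05 numbered 538 without WT LCA replicate 3, an alternative chosen after seeing the data, against 308. Of 2479 log2 differences of 138 named genes under the alternatives, 2410 kept sign and side of the threshold, 40 newly passed, 3, all of Schip1, no longer passed, and 26 changed sign, all of genes that did not pass. Leaving out single arrays moved Cdh5 from -0.011 to 0.23, Eln from -0.70 to 0.39, Klf4 from -0.18 to 0.12, Ldb3 from -0.090 to 0.084, Nos3 from -0.077 to 0.14, Pecam1 from -0.27 to 0.77, S100a9 from -1.13 to 0.00029, Tgfb1 from -0.045 to 0.10 and Vwf from -0.034 to 0.50. Array weights gave -0.029 for Cdh5, 0.14 for Klf4, -0.016 for Nos3 and -0.045 for Tgfb1. Averaged probes gave 0.0042 for Csf1r, 0.30 for Eln, 0.31 for Klf4 and -0.068 for Nos3, and a second quantile normalization gave -0.00037 for Ldb3. Of 810 list medians, 746 moved by less than their spread between arrays and 64 by more. Most genes lie near background, and whether this compresses their differences was not tested. With the array floor subtracted and 16 added to each value, the contractile median was 0.51, against 0.24 in the main setting. The value depends on that offset, and no median over all genes was taken in this setting.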
